A study of Mus musculus with 18 samples.

Results

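The 7 genes described here are the Reg (regenerating islet-derived) family members Reg1, Reg2, Reg3a, Reg3b, Reg3d, Reg3g and Reg4, measured in isolated pancreatic islets of obese and lean mice. They were chosen by name, and all 7 had 1 transcript cluster of their own on both array designs, out of 22180 genes with such a cluster. Affymetrix gene arrays measured total RNA of handpicked islets, and the deposited values are log2 signals, so a difference of 1 is a doubling of signal. The groups were C57BL/KsJ db/db mice and their lean KsJ controls at 16 weeks, the same pair at 6 weeks, C57BL/6J ob/ob mice and their lean 6J controls at 16 weeks, and that pair at 6 weeks. The larger value table holds 2 arrays of each of these 8 groups, and a smaller table holds 1 more db/db and 1 more lean KsJ array of 16 weeks, called replicate 3 below. Both mutations act in the whole body: db/db mice lack the long form of the leptin receptor and ob/ob mice lack leptin. The animals came from 1 breeding colony under conventional housing, and nothing in the labels tells separate animals of a group from pooled ones. The p-values below thus speak of the spread between samples, which may be technical.

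Reg proteins are small secreted lectins. Reg1 and Reg2 are known as products of pancreatic acinar cells, where they are secreted with the digestive enzymes, and both have been studied in regenerating islets. Reg3b and Reg3g are antimicrobial lectins of the gut epithelium that bind bacterial surfaces, and interleukin-22 and gp130 cytokines induce them through the transcription factor STAT3. Reg3b is also the pancreatitis-associated protein of inflamed acinar tissue, and Reg4 marks secretory cells of the intestinal crypt. Because acinar and intestinal cells are known sources of Reg transcripts, every level below was read beside marker genes of those cells. In bulk samples, fewer cells of a type and less RNA per cell cannot be told apart.

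Of the members, 6 lie side by side on chr6:78370885-78468874 (GRCm38.p6), a stretch of 98.0 kb, in the order Reg3b, Reg3d, Reg3a, Reg2, Reg1 and Reg3g. Reg4 lies apart, on chr3:98222138-98236748. The promoters of Reg1 and Reg2, the pair known from acinar cells, and of Reg3b and Reg3g, the antimicrobial pair, are shown from 250 bases before to 50 bases after the RefSeq start (GRCm38.p6). All 7 members matched the RefSeq promoter table. Capitals mark every CANNTG, the E-box bound by basic helix-loop-helix factors such as PTF1A, and every TTCCCA or its reverse complement TGGGAA, the core bound by RBPJ-type factors, searched on both strands. The 4 windows are chr6:78425733-78426032 (plus strand) for Reg1, chr6:78404905-78405204 (plus strand) for Reg2, chr6:78370635-78370934 (plus strand) for Reg3b and chr6:78468825-78469124 (minus strand) for Reg3g.
Reg1: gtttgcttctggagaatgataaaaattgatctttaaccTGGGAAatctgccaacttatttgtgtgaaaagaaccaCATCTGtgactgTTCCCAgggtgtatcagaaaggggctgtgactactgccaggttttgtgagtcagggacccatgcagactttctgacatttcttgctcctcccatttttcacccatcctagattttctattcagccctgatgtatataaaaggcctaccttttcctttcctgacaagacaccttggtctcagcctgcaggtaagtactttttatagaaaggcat
Reg2: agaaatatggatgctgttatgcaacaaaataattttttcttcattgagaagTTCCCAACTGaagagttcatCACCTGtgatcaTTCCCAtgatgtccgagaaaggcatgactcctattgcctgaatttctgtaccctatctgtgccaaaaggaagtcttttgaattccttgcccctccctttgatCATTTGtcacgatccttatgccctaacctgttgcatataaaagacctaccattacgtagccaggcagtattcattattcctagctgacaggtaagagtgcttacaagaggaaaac
Reg3b: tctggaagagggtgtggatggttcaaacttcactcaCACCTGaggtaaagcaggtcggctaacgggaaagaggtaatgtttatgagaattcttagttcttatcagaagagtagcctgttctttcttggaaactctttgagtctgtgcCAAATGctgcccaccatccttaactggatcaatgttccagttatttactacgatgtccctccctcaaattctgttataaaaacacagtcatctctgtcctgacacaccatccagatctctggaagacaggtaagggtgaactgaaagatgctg
Reg3g: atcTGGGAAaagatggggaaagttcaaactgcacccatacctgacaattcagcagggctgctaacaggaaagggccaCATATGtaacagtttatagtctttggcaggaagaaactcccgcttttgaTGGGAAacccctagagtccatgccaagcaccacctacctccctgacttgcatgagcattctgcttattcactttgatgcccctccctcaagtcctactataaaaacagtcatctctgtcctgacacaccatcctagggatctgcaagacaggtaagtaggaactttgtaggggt

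CANNTG occurred in all 7 Reg promoters and in 72.3% of 32851 mouse promoters of that length. TTCCCA or TGGGAA occurred in 5 of the 7, all but Reg3b and Reg4, and in 25.6% of all promoters. In Reg1 and Reg2 both motifs stood in 1 arrangement, a CANNTG, 6 bases and a TTCCCA. The 18 bases were CATCTGtgactgTTCCCA in Reg1, with its first base at -175 from the start site, and CACCTGtgatcaTTCCCA in Reg2, with its first base at -179. Of all promoters searched, 33 (0.1%) held this arrangement, and none of the 22 acinar enzyme genes with a promoter in the table did. Only the spacing seen in Reg1 and Reg2 was counted, so the match of these promoters was given in advance. The shares do not cover the same motifs at other distances. In Reg2 the first TTCCCA overlapped another CANNTG. The STAT-type palindrome TTCNNNGAA was found in 2 Reg promoters, Reg3b and Reg3d, starting at -129 and -238, and in 8.3% of all promoters; in Reg3d it overlapped a TTCCCA. The TATA element TATAAA, on the gene strand, was found in Reg1, Reg2, Reg3b and Reg3g, starting between -30 and -27, and in 8.32% of all promoters. Reg3b and Reg3g had the most similar promoters of the 21 pairs, with 69.0% identical aligned positions, and Reg1 and Reg2 came next at 58.5%. The 6 pairs with Reg4 ranged between 49.1% and 51.0%. These matches describe letters and were not tested for binding.

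**Figure D1:**
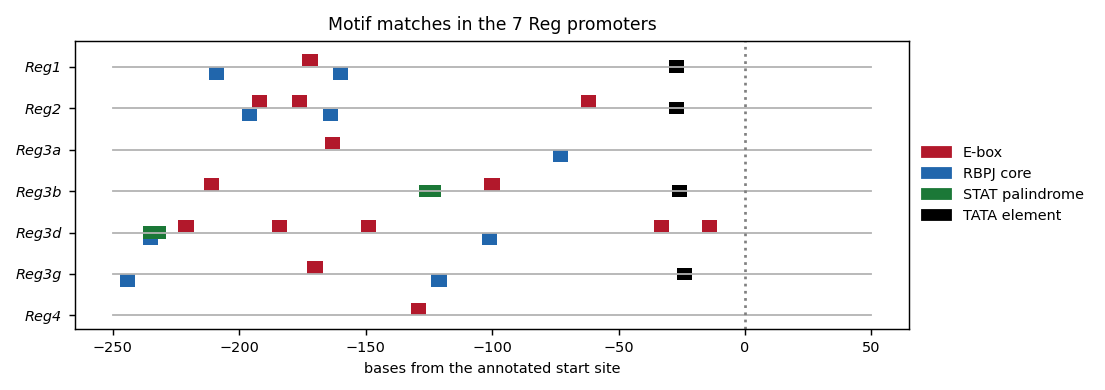
Matches to 4 motifs in the promoters of the 7 Reg genes, by distance in bases from the annotated start site (dotted line) and each bar is 1 match. Reg1 and Reg2 share an E-box followed by an RBPJ core at about the same distance from the start, and the STAT palindrome stands in Reg3b and Reg3d.

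The endocrine genes that define islets, such as Ins2 and Gcg, averaged 11.37 to 12.09 over 14 genes on the 16 arrays of the larger table. Acinar and intestinal markers were not even across arrays of a group. The mean of 23 acinar enzyme genes ranged between 7.27 and 11.6, highest on lean KsJ 16-week replicate 2, where 5 acinar transcription factors also averaged 9.21 against a median of 4.92 over arrays. The mean of 24 enterocyte genes was 9.99 on lean 6J 6-week replicate 2, 8.57 and 5.88 on db/db 16-week replicates 2 and 1, 5.49 on lean KsJ 16-week replicate 2, and 4.01 to 4.82 on the other 12 arrays. On those 12 arrays the defining enterocyte gene Sis, sucrase-isomaltase, was at 2.23 to 3.47. In the smaller table the db/db array had an acinar mean of 10.73 and an enterocyte mean of 8.81, and the lean array 11.55 and 4.27. Ctrc, the chymotrypsin C gene of the acinar list, did not exceed 5.70 on any 6J array and was at least 8.09 on every KsJ array. The Y-linked gene Uty was high (7.25 to 7.86) on 5 arrays and at most 3.60 on the others, so both sexes were present although the labels give none. At each age it was high on 0 of 2 db/db and 1 of 2 lean KsJ arrays. At 6 weeks it was high on 2 of 2 ob/ob and 1 of 2 lean 6J arrays, and at 16 weeks on 0 of 2 of each. Sex was thus uneven between obese and lean arrays except in 16-week ob/ob and lean 6J islets, and its part in the Reg values was not tested. The plot of marker means shows these differences by group.

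**Figure D2:**
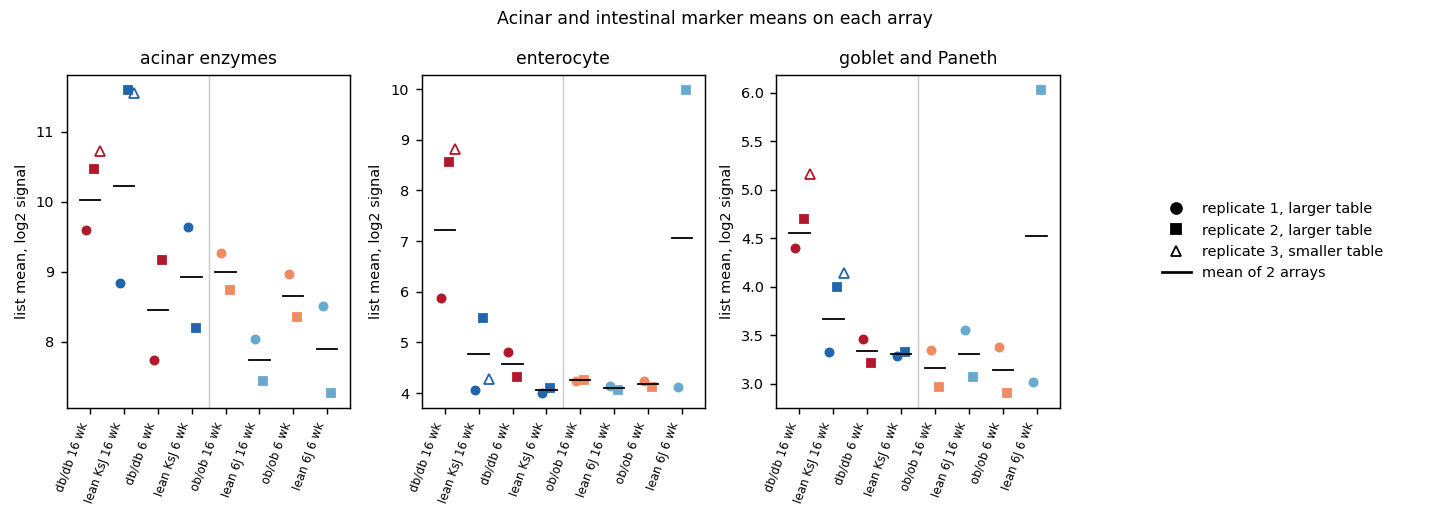
Mean log2 signal of the acinar enzyme, enterocyte, and goblet and Paneth gene lists on each array, by group, obese left of lean and 16 weeks left of 6 weeks; circles are replicate 1, squares replicate 2, open triangles the 2 arrays of the smaller table, and bars the mean of the 2 arrays of the larger table. Lean 6J 6-week replicate 2 and the db/db 16-week arrays stand high in enterocyte genes, and lean KsJ 16-week replicates 2 and 3 in acinar genes.

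Reg1, secreted by acinar cells and also called lithostathine or pancreatic stone protein, was bright on every array, at 9.90 to 13.21, in the 99.6th percentile of mean signal. Reg3b spanned 3.75 to 12.87, Reg3g 3.20 to 11.40 and Reg3d 4.13 to 11.47. Reg2 spanned 4.06 to 8.95 and Reg3a 2.65 to 7.12. Reg4 had a mean of 2.94, below the filter of 2.99 (the 30th percentile of mean signal over genes), so 6 of the 7 members were tested and Reg4 is given as values. The spread between the 2 arrays of a group was among the widest on the array. The pooled within-group standard deviation (SD) was 0.92 for Reg1, 1.34 for Reg2, 1.59 for Reg3a, 1.77 for Reg3d, 2.17 for Reg3g and 2.46 for Reg3b, against a median of 0.27 over the 15526 genes tested. These SDs lay between the 97.5th and the 100th percentile of genes.

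With the 8 groups ordered by mean, most neighbours overlapped in range. Reg1 ran through lean KsJ 16 weeks (12.45 ± 1.08, SD, n = 2), db/db 16 weeks (12.11 ± 0.40), lean 6J 6 weeks (11.97 ± 1.16), ob/ob 16 weeks (11.75 ± 0.48), lean KsJ 6 weeks (11.53 ± 1.18), ob/ob 6 weeks (10.93 ± 0.76), db/db 6 weeks (10.84 ± 1.33) and lean 6J 16 weeks (10.30 ± 0.46). All 7 neighbouring pairs in that order overlapped, as they did for Reg3a and Reg3d. For Reg2, Reg3g and Reg4, 6 of 7 neighbouring pairs overlapped, and for Reg3b 5 of 7. Lean 6J islets of 16 weeks had the lowest mean of all 8 groups for each of the 6 members on chromosome 6. The highest mean was in lean KsJ 16-week islets for Reg1 and Reg3d, in ob/ob 16-week islets for Reg2, in db/db 16-week islets for Reg3a, and in lean 6J 6-week islets for Reg3b, Reg3g and Reg4. In those last 3 cases the mean rested on 1 array, replicate 2, which was high in enterocyte genes.

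**Figure D3:**
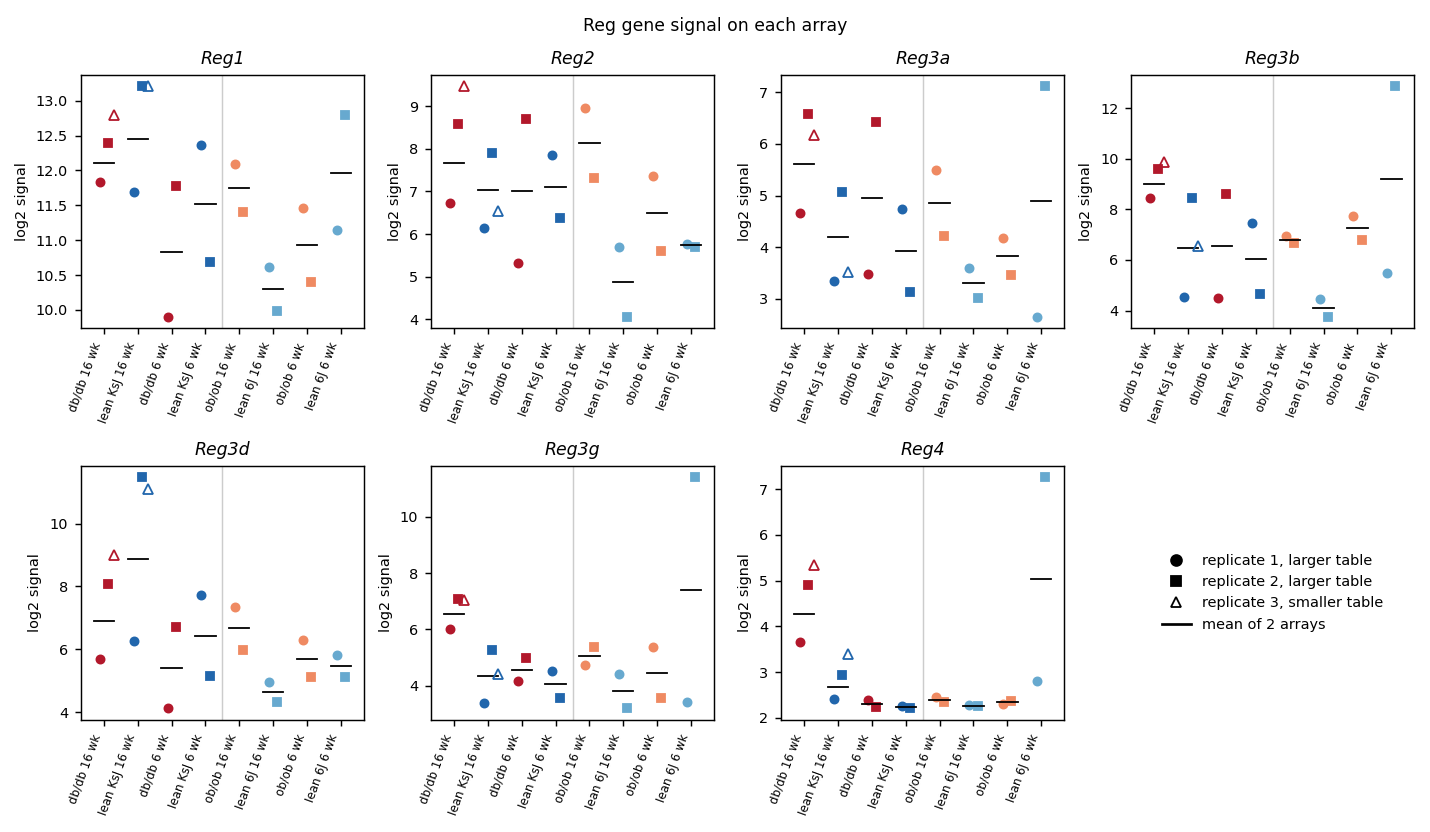
Log2 signal of each Reg gene on every array, by group, obese left of lean and 16 weeks left of 6 weeks; circles are replicate 1, squares replicate 2, open triangles the 2 arrays of the smaller table, and bars the mean of the 2 arrays of the larger table. The 2 arrays of a group lie far apart for most genes, and lean 6J 6-week replicate 2 stands alone for Reg3b, Reg3g and Reg4.

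The first comparison asked whether Reg transcripts differ between db/db and lean KsJ islets at 16 weeks. Reg3b and Reg3g were higher on average in db/db islets, and Reg3d was lower, but no member passed the test. limma, a linear model with moderated variances over all genes, called 0 of 6 tested members at an adjusted p below 0.05 and 0 at an unadjusted p below 0.05. Over all genes tested, 5.80% were called, and 24.5% had an unadjusted p below 0.05. The members' median log2 change was 1.02, with 4 of 6 above 0, against a median of 0.18 and 65.7% above 0 over all genes.

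Reg3b, the pancreatitis-associated protein, was at 8.43 and 9.60 in db/db islets, against 4.54 and 8.44 in lean KsJ islets. The lean arrays differed from each other by more than the 2 group means did, and the lower db/db array lay just under the higher lean one. The log2 change was 2.52 ± 2.09 (SE; limma adjusted p = 0.486). Reg3g, a lectin that kills Gram-positive bacteria, was at 6.00 and 7.08 in db/db islets, against 3.39 and 5.28 in lean islets. Both db/db arrays exceeded both lean arrays, and the change was 2.20 ± 1.84 (limma adjusted p = 0.490). Reg3a, a further Reg3 lectin, was at 4.66 and 6.57 in db/db islets, against 3.34 and 5.07 in lean islets, with overlapping arrays and a change of 1.41 ± 1.35 (limma adjusted p = 0.554). Leaving out 1 array at a time gave changes between 0.57 and 4.47 for Reg3b, 1.26 and 3.15 for Reg3g, and 0.45 and 2.36 for Reg3a.

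Reg3d, the mouse relative of the hamster islet neogenesis protein INGAP, ran the other way. It was at 5.71 and 8.07 in db/db islets, against 6.28 and 11.47 in lean KsJ islets, a change of -1.99 ± 1.50 (limma adjusted p = 0.441). The value of 11.47 came from the array with the highest acinar mean. Without that array, lean KsJ replicate 2, the change was 0.60, and without lean KsJ replicate 1 it was -4.58 with an adjusted p of 0.0256 in limma, in a fit that called 4687 genes in place of 900.

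Reg1 was at 11.83 and 12.39 in db/db islets, against 11.69 and 13.21 in lean islets, with a change of -0.34 ± 0.79 (limma adjusted p = 0.826). Both db/db values lay between the lean ones. Reg2, a second acinar lithostathine found in mice, was at 6.74 and 8.59 in db/db islets, against 6.14 and 7.91 in lean islets, a change of 0.64 ± 1.14 (limma adjusted p = 0.765). Its groups overlapped. Reg4 was at 3.66 and 4.90 in db/db islets, against 2.42 and 2.93 in lean islets, so that it and Reg3g were the 2 of 7 members whose db/db arrays both exceeded both lean arrays. Over all genes tested, 32.8% did so, and 10.4% had both db/db arrays below both lean arrays. The db/db arrays were also the ones high in intestinal genes: all 22 tested enterocyte genes had a mean above the lean one, with a median change of 2.75, and the part of these cells in the Reg3g, Reg3b and Reg4 values was not tested by this comparison.

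The smaller table gave a further array of each group, with no test. Reg3b was at 9.86 on the db/db and 6.56 on the lean array, Reg3g at 7.03 and 4.43, Reg3a at 6.17 and 3.51, Reg2 at 9.47 and 6.54, and Reg4 at 5.34 and 3.39. Reg3d was at 9.01 on the db/db and 11.09 on the lean array, and Reg1 at 12.80 and 13.21. The sign of each difference matched that in the larger table for all 7 members, and for 73.1% of all genes tested. Of the marker genes, Sis was at 9.84 on the db/db and 2.28 on the lean array, and Ptf1a, an acinar transcription factor, at 4.23 and 7.21. In the larger table Sis was at 5.62 and 9.03 in db/db islets, against 2.48 and 5.20 in lean islets. Ptf1a was at 3.99 and 4.58 there, against 3.96 and 8.24, so its lower db/db mean rested on lean replicate 2.

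In ob/ob islets of 16 weeks all 7 members were higher than in lean 6J islets on both arrays, by small to large amounts, and none passed the test. Of all tested genes, 28.2% had both ob/ob arrays above both lean arrays and 33.3% had both below, and the 7 members share the same 4 arrays, so they are not separate observations. limma called 0 of 6 tested members, against 0.0708% of all genes. Reg2 alone had an unadjusted p below 0.05, against 16.6% of all genes. The members' median log2 change was 1.78, against -0.03 over all genes.

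Reg2 was at 8.95 and 7.32 in ob/ob islets, against 5.69 and 4.06 in lean 6J islets. The arrays did not overlap, and the change was 3.26 ± 1.14 (SE, n = 2 arrays per group; limma adjusted p = 0.194). Leaving out 1 array at a time gave changes between 2.44 and 4.07. Reg1 was at 12.09 and 11.41 in ob/ob islets, against 10.62 and 9.98 in lean islets, a change of 1.45 ± 0.79 (limma adjusted p = 0.394). Reg3d was at 7.35 and 5.98 in ob/ob islets, against 4.96 and 4.33 in lean islets, a change of 2.02 ± 1.50 (limma adjusted p = 0.546). For these 3 genes, and for Reg3a, Reg3b and Reg4 below, replicate 1 was the higher array in both groups. It was also the array with the higher acinar mean.

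Reg3b was at 6.93 and 6.66 in ob/ob islets, against 4.45 and 3.75 in lean islets. This was the tightest of the Reg3 differences within groups, and its change was 2.70 ± 2.09, with the SE set by the spread over all 8 groups (limma adjusted p = 0.565). Fitted on these 4 arrays alone, the same change had an adjusted p of 0.0205 in limma, in a fit that called 1293 genes in place of 11. Reg3a was at 5.50 and 4.21 in ob/ob islets, against 3.60 and 3.02 in lean islets, and Reg3g at 4.75 and 5.37, against 4.43 and 3.20. Their changes were 1.54 ± 1.35 and 1.25 ± 1.84 (limma adjusted p = 0.619 and 0.793). Reg4 was at 2.45 and 2.34, against 2.28 and 2.25, a difference of 0.13 among dim values.

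Acinar enzymes were higher in the same ob/ob islets. The acinar mean was 9.27 and 8.73 in ob/ob islets, against 8.03 and 7.43 in lean 6J islets, and 20 of 21 tested acinar enzyme genes had a change above 0, with a median of 1.24 and none called. Cpa1, carboxypeptidase A1, was at 12.66 and 12.20, against 11.68 and 11.07. Enterocyte means were 4.24 and 4.26 in ob/ob islets, against 4.14 and 4.06 in lean islets, and Sis (2.65 and 2.42, against 2.64 and 2.23) was dim on all 4 arrays.

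At 6 weeks no member was called in either model. In db/db islets limma called 0 of 6 members, against 0.0258% of all genes. An unadjusted p below 0.05 was found for 0 members, against 8.52% of all genes. Reg1 was at 9.90 and 11.77 in db/db islets, against 12.36 and 10.69 in lean KsJ islets, and Reg2 at 5.32 and 8.70, against 7.85 and 6.38. Reg3b was at 4.51 and 8.60 in db/db islets, against 7.45 and 4.64 in lean islets, and Reg3d at 4.13 and 6.71, against 7.72 and 5.15. In each of these genes 1 array of each group was high, and it was the one with more acinar RNA (db/db replicate 2 at an acinar mean of 9.16 and lean replicate 1 at 9.64, against 7.74 and 8.20 on their partners). Reg3a (3.49 and 6.42, against 4.73 and 3.14) and Reg3g (4.15 and 4.98, against 4.53 and 3.57) followed the same order. All 7 members overlapped between groups, where 21.9% of all genes had both db/db arrays higher and 27.9% both lower. Changes lay between -1.01 for Reg3d and 1.02 for Reg3a.

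In 6-week ob/ob islets limma called 0 of 6 members and 0% of all genes. An unadjusted p below 0.05 was found for 0 members, against 6.15% of all genes. The comparison turned on lean 6J replicate 2. Reg3g was at 5.38 and 3.55 in ob/ob islets, against 3.42 and 11.40 in lean 6J islets, and Reg3b at 7.73 and 6.79, against 5.50 and 12.87. Reg3a was at 4.17 and 3.47, against 2.65 and 7.12, and Reg4 at 2.30 and 2.37, against 2.80 and 7.26. Between the 2 lean arrays Reg3g thus differed by 7.97 and Reg3b by 7.37, the widest gaps between partners that any Reg gene showed, while the gaps between the ob/ob arrays were narrower. The changes were -2.95 ± 1.84 for Reg3g and -1.93 ± 2.09 for Reg3b (limma adjusted p = 0.804 and 0.891). Without lean replicate 2 they were 1.04 and 1.76, and without lean replicate 1 the Reg3g change was -6.93 with an adjusted p of 0.00262 in limma, in a fit that called 321 genes in place of 0. Reg2 (7.37 and 5.60, against 5.77 and 5.70) and Reg3d (6.30 and 5.12, against 5.83 and 5.11) did not stand out on that lean array, and Reg1 was at 11.46 and 10.40 in ob/ob islets, against 11.15 and 12.79. Reg4 was the 1 member with both ob/ob arrays below both lean ones, as had 16.8% of all genes, while 19.9% had both above.

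The difference between the db/db and the ob/ob change was tested as an interaction. It was called for 0 of 6 members at 16 weeks (0.0129% of all genes) and 0 at 6 weeks (0% of all genes). At either age 0 members had an unadjusted p below 0.05. Over all genes 15.6% did at 16 weeks and 2.25% at 6 weeks. At 16 weeks the interaction was largest for Reg3d, at -4.01 ± 2.12 (limma adjusted p = 0.370), and for Reg2, at -2.62 ± 1.61 (limma adjusted p = 0.418). A constant difference between the KsJ and 6J strains cancels in the interaction. A response to obesity that differs between the strains does not cancel and cannot be told apart from the model. Between the ages, all 6 tested members had a higher mean at 16 weeks in db/db islets, with a median change of 1.37, and 5 of 6 did in ob/ob islets, with a median of 0.89. The median over all genes was -0.01 in both. limma called 0 of 6 members in db/db islets (0.0644% of all genes) and 0 in ob/ob islets (0% of all genes), with 0 at an unadjusted p below 0.05. Over all genes 7.61% had such a p in db/db and 3.9% in ob/ob islets. In db/db islets the acinar mean was also higher at 16 weeks, at 9.59 and 10.46, against 7.74 and 9.16 at 6 weeks. So was the enterocyte mean, at 5.88 and 8.57, against 4.82 and 4.32 at 6 weeks, with 21 of 22 enterocyte genes above 0 and a median change of 3.22. When both marker means entered the fit as covariates, all 6 changes in db/db islets turned below 0. They lay between -2.44 ± 0.94 for Reg3a and -0.56 ± 0.62 for Reg1 (limma adjusted p = 0.293 and 0.685). Reg3d stood at -2.04 ± 0.27 (limma adjusted p = 0.103), and no member was called. Both means differed between the ages, so the part of either in the Reg changes cannot be told apart from age. In ob/ob islets Uty was low on both 16-week arrays and high on both 6-week arrays, so age and sex cannot be told apart there.

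Over the arrays, Reg signal followed the acinar mean for some members and not for others. These correlations pool all groups, so their p-values also take in differences between groups. Reg3d tracked it most closely, with Pearson's r of 0.93 and Spearman's rho of 0.91 over 16 arrays (permutation test, p = 1e-05, the smallest that 100000 resamples can give; adjusted p = 0.00014 over 14 relations). Without the 2 arrays farthest from the median r was 0.84, and it was 0.94 over the 8 KsJ arrays and 0.88 over the 8 6J arrays. For Reg2 r was 0.75 and rho 0.84 (permutation test, p = 0.00067, adjusted p = 0.00469), with 0.79 without the 2 farthest arrays, 0.70 in KsJ and 0.85 in 6J. For Reg1 r was 0.68 and rho 0.67 (permutation test, p = 0.00338, adjusted p = 0.0118), but 0.49 without the 2 farthest arrays (adjusted p = 0.352), 0.95 in KsJ and 0.15 in 6J, where the enterocyte-rich array had the lowest acinar mean and the highest Reg1. Over all strains the relation of Reg1 thus no longer passed the threshold without those arrays (rho = 0.57, adjusted p = 0.150, permutation test). Within the 8 KsJ arrays Reg1 followed the acinar order without exception (rho = 1.0, exact test, adjusted p = 0.000347 over 7 relations).

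Within groups, which removes strain, age and genotype, Reg2 and Reg3d were higher on the array with more acinar RNA in 8 of 8 groups. Sex is not removed, as Uty was high on 1 of 2 arrays in lean KsJ islets of both ages and lean 6J islets of 6 weeks. The gaps ran between 0.07 and 3.38 for Reg2 and between 0.63 and 5.19 for Reg3d. The correlation of deviations from group means was 0.97 for Reg3d and 0.79 for Reg2 (exact test, p = 0.00781 for each, the smallest that 8 groups allow; adjusted p = 0.0547). For Reg1 the correlation of deviations was 0.64 (exact test, adjusted p = 0.621), and no member passed the threshold this way. Reg1, Reg3a and Reg3b were higher on the acinar-richer array in 7 of 8 groups, Reg3g in 6 and Reg4 in 5. The exception for Reg1, Reg3a and Reg3b was the lean 6J group of 6 weeks, where the other array was the enterocyte-rich one. Over all 16 arrays, r with the acinar mean was 0.35 for Reg3a, 0.31 for Reg3b, 0.01 for Reg3g and -0.05 for Reg4 (permutation tests, adjusted p between 0.299 and 0.956), with rho of 0.47, 0.55, 0.40 and 0.24. The r values differed between the arrays of the 2 strains, and that difference was not tested. Over the 8 KsJ arrays r was 0.61 for Reg3a, 0.78 for Reg3b, 0.65 for Reg3g and 0.52 for Reg4, past the threshold for Reg3b alone (exact tests, adjusted p = 0.0488 for Reg3b and 0.116 to 0.192 for the others). Over the 8 6J arrays, which include the enterocyte-rich one, r was -0.13, -0.19, -0.39 and -0.57 in the same order (exact tests, adjusted p between 0.299 and 0.780). By rank the 6J values were not negative, with rho of 0.14, 0.24, 0.17 and 0.05. Over the KsJ arrays rho was 0.74, 0.76, 0.74 and 0.57.

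**Figure D4:**
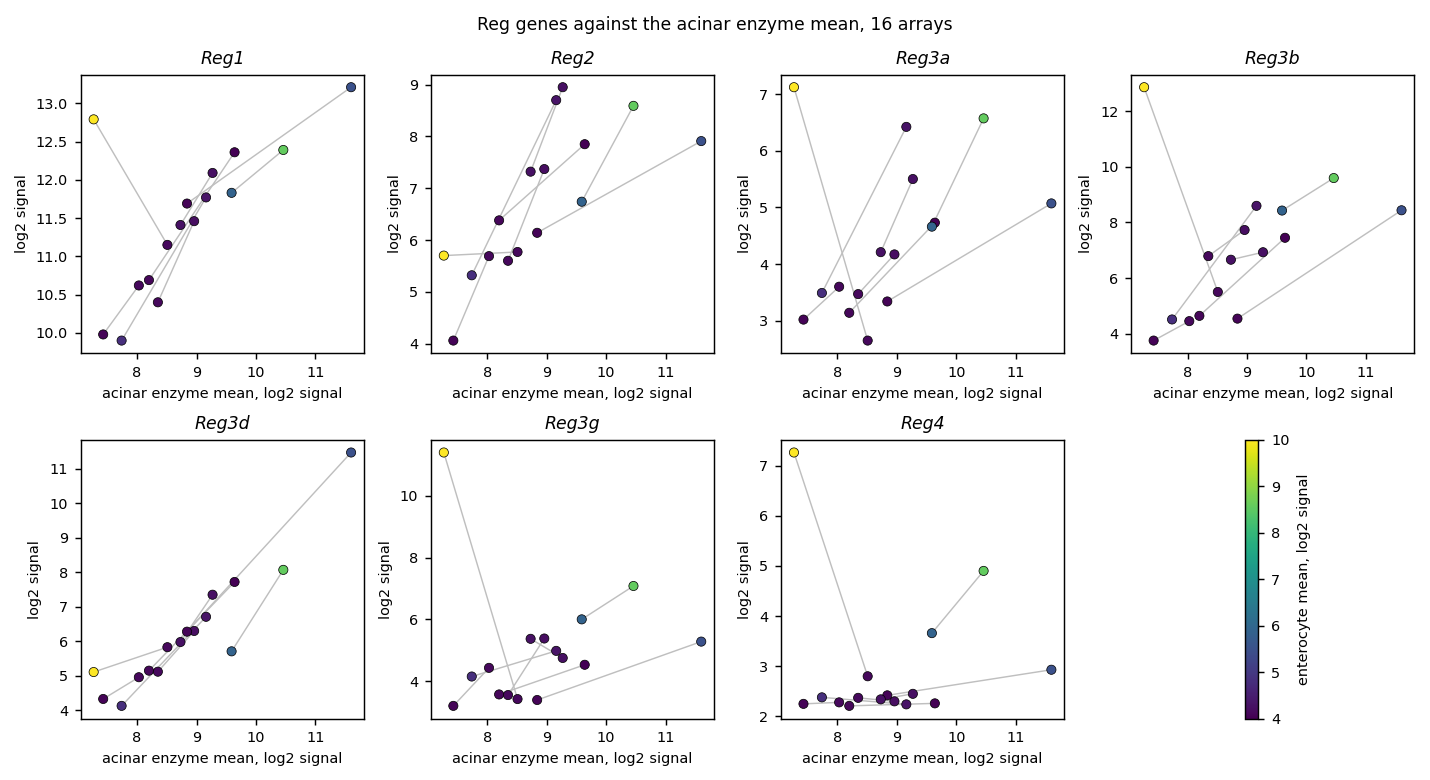
Log2 signal of each Reg gene against the acinar enzyme mean (log2 signal) on the 16 arrays of the larger table; lines join the 2 arrays of a group and colour gives the enterocyte mean. Reg3d rises along the acinar axis (r = 0.93), whereas the array with an enterocyte mean of 9.99 carries the highest Reg3a, Reg3b, Reg3g and Reg4 at the lowest acinar mean.

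The enterocyte means fell into 14 lower arrays and 2 high ones, separated by a gap of 2.69, so correlations were taken over the 14. Reg4 gave r = 0.85 (permutation test, p = 0.00248, adjusted p = 0.0116), but its rho of 0.49 did not pass (permutation test, adjusted p = 0.122). Reg3g gave r = 0.63 (permutation test, p = 0.00931, adjusted p = 0.0261) and rho = 0.71 (permutation test, adjusted p = 0.02). Without the 2 farthest arrays Reg4 had r = 0.03 and rho = 0.19, so its relation rested on those arrays. Reg3g then had r = 0.28 and rho = 0.60 (permutation tests, adjusted p = 0.878 and 0.150), so its linear relation rested on them, while the rank relation kept most of its size and no longer passed the threshold. The other 5 members gave r between 0.16 and 0.48, with adjusted p between 0.182 and 0.694 (permutation tests). From deviations within 6 groups r was 0.95 for Reg4 and 0.50 for Reg3g (exact tests, p = 0.438 and 0.594). On the 2 arrays above the gap, Reg3g was at 11.40 and 7.08, Reg4 at 7.26 and 4.90, and Reg3b at 12.87 and 9.60, the highest 2 values of the larger table for each gene. For Reg3d the same arrays gave 5.11 and 8.07. Between these arrays Reg3g differed by 4.31, Reg3b by 3.27, Reg4 by 2.36 and Reg3a by 0.56, and the 24 enterocyte genes by -0.06 to 3.64 with a median of 1.43. Fabp2, the intestinal fatty acid binding protein, was at 11.68 and 9.86 on them, and the 13 goblet and Paneth genes differed by -2.21 to 4.47.

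When both marker means, acinar and enterocyte, entered the fit as covariates, which leaves 6 residual degrees of freedom, the Reg3 differences of 16-week db/db islets shrank and the Reg3d difference stayed. Reg3d was lower by 2.27 on the log2 scale (-2.27 ± 0.23; limma adjusted p = 0.0143), the 1 member called in this fit, which called 1288 of 15526 genes. Its SE was 1.50 without the covariates. Reg3b stood at -0.15 ± 1.27, Reg3g at -0.68 ± 0.93 and Reg3a at -0.33 ± 0.81 (limma adjusted p = 0.952, 0.666 and 0.822). The enterocyte mean itself differed between these groups (5.88 and 8.57 in db/db, against 4.07 and 5.49 in lean islets), so part of any genotype difference cannot be told apart from it. With each array of the comparison left out of this fit in turn, an alternative chosen after seeing the data, the Reg3d change lay between -2.43 and -2.15. Its limma adjusted p was 0.0306 and 0.0219 without db/db replicates 1 and 2, and 0.00274 and 0.113 without lean replicates 1 and 2. Without lean replicate 2 limma called 0 genes in all, with 1757 at an unadjusted p below 0.05, Reg3d among them (limma unadjusted p = 5.7e-05). In ob/ob islets of 16 weeks the covariates took Reg3d to -0.30 ± 0.23 and Reg1 to 0.58 ± 0.52, and Reg2 stood at 1.81 ± 0.78 (limma adjusted p = 0.578, 0.650 and 0.331). The interaction for Reg3d was -1.97 ± 0.32 (limma adjusted p = 0.138), so the Reg3d changes of the 2 models were not shown to differ. In 6-week ob/ob islets the Reg3g and Reg3b changes were 0.35 ± 0.99 and 0.64 ± 1.35.

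**Figure D5:**
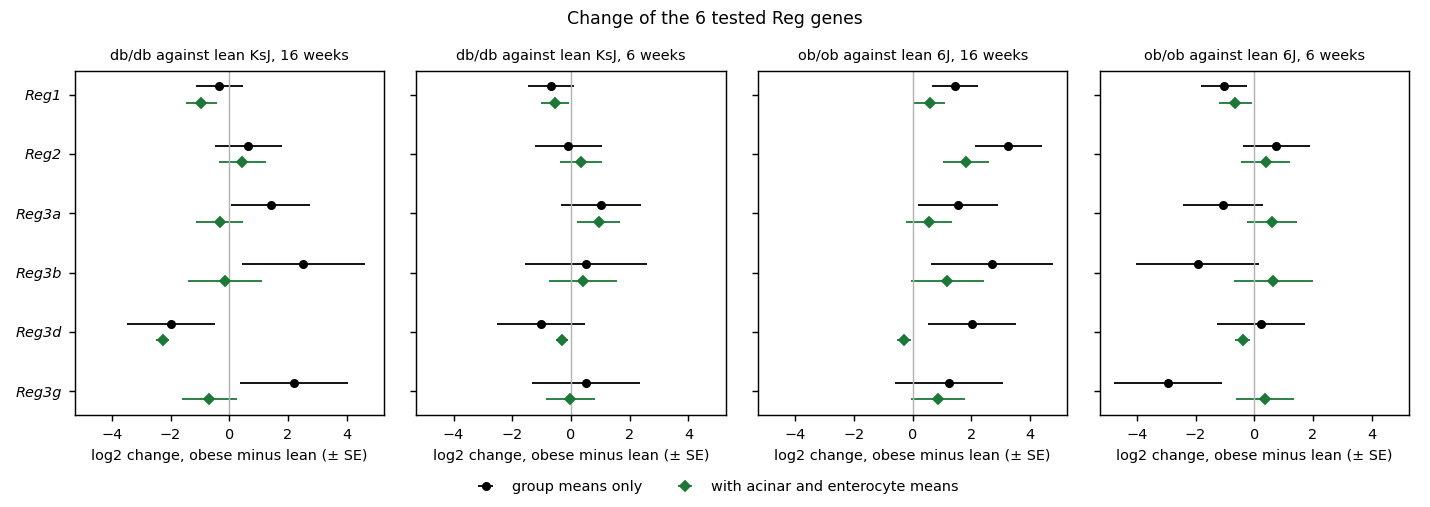
Log2 change ± SE of the 6 tested Reg genes, obese minus lean, in the 4 comparisons; circles are from group means alone and diamonds from the fit with both marker means as covariates. In 16-week db/db islets the covariates bring Reg3b and Reg3g to -0.15 and -0.68, and leave Reg3d at -2.27 with a narrower SE.

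The genes whose pattern over the 16 arrays was most like each member's are given by Pearson's r, with no test, and the arrays share tissue admixture and strain. For Reg3d they were the kallikrein gene Klk1b5 (0.965), the cargo receptor gene Tmed11 (0.956) and Aqp12 (0.956), an aquaporin of acinar cells. For Reg1 they were Zg16 (0.938), a zymogen granule lectin, the trypsin inhibitor gene Spink1 (0.863) and the mucosal scavenger receptor gene Dmbt1 (0.831). For Reg2 they were Bet1 (0.850), B4galt2 (0.809) and Sycn (0.802), a zymogen granule protein. The Reg3 lectins had other neighbours. For Reg3g they were Ckmt1 (0.954), Otop3 (0.952) and the galectin gene Lgals2 (0.947), for Reg3b Dhrs1 (0.889), the folate transporter gene Slc46a1 (0.884) and the citrate synthase gene Cs (0.882), and for Reg3a Mrpl32 (0.878), the keratin gene Krt8 (0.859) and Synpo (0.854). Of these 18 genes, Spink1 and Sycn are in the acinar list and none is in the enterocyte list. The lists hold only some genes of each cell type, so absence from a list does not say where a gene is expressed. All these r include lean 6J 6-week replicate 2, where Reg3g was at 11.40, and were not taken without it.

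Among the members, the closest pairs over 16 arrays were Reg3g with Reg4 (r = 0.92), Reg3b with Reg3g (0.89), Reg3a with Reg3b (0.88) and Reg3a with Reg3g (0.80). Without lean 6J 6-week replicate 2 these were 0.72, 0.83, 0.84 and 0.79, and the closest pair was then Reg1 with Reg3d (0.92, against 0.79 over all 16 arrays). Reg2 and Reg3g had r = 0.19 with that array and 0.69 without it, and Reg3d and Reg3g 0.11 and 0.49. Reg3b and Reg3d, which adjoin on the chromosome, had r = 0.38 with that array and 0.67 without it, and Reg3b and Reg3g, at opposite ends of the cluster, 0.89 and 0.83. Members with similar sequences may share probe signal, which was not tested.

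Genes of the pathway that induces Reg3 lectins were read in 16-week db/db against lean KsJ islets. Of 14 tested receptor and signalling genes, limma called 2 higher and 1 lower, where 5.80% of all genes were called. Of these 14 genes, 4 had an unadjusted p below 0.05, against 24.5% of all genes. The interleukin-6 receptor gene Il6ra was at 10.28 and 10.40 in db/db islets, against 9.64 and 9.04 in lean KsJ islets, and rose by 1.01 ± 0.21 (SE; limma adjusted p = 0.0264). The oncostatin M receptor gene Osmr was at 5.80 and 6.54, against 5.32 and 4.73, and rose by 1.14 ± 0.29 (limma adjusted p = 0.0454). The leukaemia inhibitory factor receptor gene Lifr was at 8.40 and 8.53, against 9.44 and 10.07, and changed by -1.29 ± 0.32 (limma adjusted p = 0.0436). The second lean value of each, from the acinar-rich replicate 2, was the lowest of the 16 arrays for Il6ra and Osmr and the highest for Lifr. Without that array the adjusted p was 0.0843, 0.176 and 0.171 in limma. Il6st, which encodes the shared receptor gp130, was at 8.62 and 8.86 in db/db islets, against 8.92 and 8.69 in lean KsJ islets, and Stat3 at 9.40 and 9.57, against 9.56 and 9.13. Il22ra1, the interleukin-22 receptor chain, was at 4.60 and 6.85 in db/db islets, against 3.20 and 9.13 in lean islets, the last on the acinar-rich array. None of 15 tested STAT3 and acute phase targets was called by limma, and 4 had an unadjusted p below 0.05. Among them Socs3, a feedback inhibitor, was at 6.11 and 5.60, against 5.40 and 4.60 (0.85 ± 0.40, limma adjusted p = 0.215). None of 7 tested ligand genes was called and 1 had an unadjusted p below 0.05; Il22 did not exceed 2.13 and Il6 did not exceed 2.58 on any array. Extl3, proposed as a Reg receptor, was at 8.17 and 8.63 in db/db islets, against 7.99 and 10.44 in lean islets.

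Cell type lists gave further calls in the same comparison. Of 14 macrophage and T cell genes 3 rose, the complement gene C1qa by 1.12 ± 0.18, the signalling adaptor gene Tyrobp by 1.48 ± 0.27 and the lysosomal gene Cd68 by 1.71 ± 0.39 (limma adjusted p = 0.0161, 0.0200 and 0.0339). Of 22 enterocyte genes Vil1, villin, rose by 1.72 ± 0.44 (limma adjusted p = 0.0458). It was at 9.37 and 9.72 in db/db islets, against 8.52 and 7.12 in lean islets, and at least 8.71 on every array outside these groups. Krt7 of 7 ductal genes rose by 1.12 ± 0.29, and of 14 endocrine genes Chgb rose by 1.15 ± 0.28 and Mafa, a beta cell transcription factor, changed by -1.26 ± 0.32 (limma adjusted p = 0.0467, 0.0413 and 0.0473). The ductal gene Krt19 was at 6.18 and 5.75, against 6.03 and 6.22, and the goblet cell gene Muc2 at 4.95 and 6.58, against 3.76 and 4.30. None of the 21 acinar enzyme genes was called and 0 had an unadjusted p below 0.05, and of 11 goblet and Paneth genes 0 were called and 1 had such a p. Such a p was found for 8 macrophage and T cell, 6 endocrine, 4 enterocyte and 2 ductal genes. Of the 130 tested list genes 30 had it, against 24.5% of all genes. In all, 10 of the 130 were called, against 5.80% of all genes. Of these 10, 8 had their lowest value of the 16 arrays on the acinar-rich lean KsJ 16-week replicate 2 (C1qa at 6.93 there and 7.17 on its partner, Tyrobp at 3.51 and 3.86, Cd68 at 4.87 and 5.44, Krt7 at 6.73 and 7.68, Chgb at 10.94 and 11.87), and that array also had the lowest endocrine mean. Without it, 0 of the 10 were called by limma (adjusted p between 0.0616 and 0.191), in a fit that called 118 genes, and all 10 had an unadjusted p below 0.05. Without db/db replicate 1 the fit called 1 of them, C1qa, without db/db replicate 2 it called 0, and without lean replicate 1 it called 9.

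In 16-week ob/ob islets and in both 6-week comparisons limma called none of the 130 list genes. Those with an unadjusted p below 0.05 numbered 9 in 16-week ob/ob, 3 in 6-week db/db and 10 in 6-week ob/ob islets. Over all genes tested the shares with such a p were 16.6%, 8.52% and 6.15% in the same order. In 16-week ob/ob islets the smallest p among receptor and signalling genes belonged to Il6st, at 8.57 and 8.61, with lean 6J values of 9.59 and 9.77 (-1.09 ± 0.26; limma adjusted p = 0.0964), and Stat3 was at 9.32 and 9.43, against 9.90 and 10.01 (-0.58 ± 0.21; limma adjusted p = 0.202). In 6-week db/db islets the acute phase gene Lrg1 had a change of 1.69 ± 0.61 (limma adjusted p = 0.539).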

How the data were processed

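Islet RNA of 18 samples had been measured on Affymetrix mouse gene arrays. The authors deposited 1 log2 signal per transcript cluster, in a table of 16 arrays and a table of 2 from a related design. Per the submitters' processing notes MAS5, RMA and Partek were used. Not given in the sources used here: tool versions and the background step. The log2 scale was read from the values. Of 41034 clusters, 23521 had 1 gene in the platform annotation. Each gene was read by its cluster of highest mean (22180 genes), and 15526 genes above the 30th percentile of the mean were tested. limma 3.58.1 (R 4.3.3) fitted 1 mean per group over the 16 arrays of the larger table, with two-sided p-values adjusted by Benjamini-Hochberg over all genes tested and a threshold of 0.05. The smaller table was read as values and joined in 1 alternative. Array medians were 3.51 to 3.83; the number of arrays limits the precision. The fit was tested on simulated data.

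Correlations with marker means used 100000 permutations, or exact tests over 8 or 6 groups or 8 arrays, adjusted over 14 relations. Those within a strain were adjusted over 7. Arrays above a gap wider than 33.3% of the range were left out of a correlation. Members, lists and this gap rule were chosen with earlier results of these data known. Genes named were the 7 members, called genes of each list up to 4 by smallest p, otherwise up to 2 by smallest p, a fixed set of marker and pathway genes (Ctrc, Cpa1, Sis, Fabp2, Muc2, Krt19, Ins2, Gcg, Ptf1a, Stat3, Socs3, Il22ra1, Il6st and Extl3), and the 3 genes most like each tested member; Uty, Il6 and Il22 were chosen after their values were seen. Promoters came from RefSeq (GRCm38.p6), aligned with Biopython 1.88. Alternatives were other filters, quantile normalization, median centring, the mean over clusters, a robust variance trend, the compared groups alone, marker means as covariates, joined tables and each array left out in turn.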

Additional observations from a re-analysis of the deposited data

How the results depend on the processing

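Of 330 values of the members' log2 changes under the alternatives, 295 kept direction and side of the threshold, 5 passed it and 30 changed sign, 19 of these when 1 array was left out. Filters, both normalizations, the mean over clusters, the robust trend and the joined tables called no member in any comparison they were run on, although the genes called in 16-week db/db islets numbered 283 to 2084 in them, against 900, and 6 with the compared groups alone. With both marker means as covariates 1 member was called in 16-week db/db islets (Reg3d), and signs turned for Reg3a (-0.33), Reg3b (-0.15) and Reg3g (-0.68) there, for Reg2 (0.34) and Reg3g (-0.02) in 6-week db/db islets, for Reg3d (-0.30) in 16-week ob/ob islets, and for Reg3a (0.60), Reg3b (0.64), Reg3d (-0.40) and Reg3g (0.35) in 6-week ob/ob islets. The compared groups alone called 1 member, Reg3b, in 16-week ob/ob islets. An alternative chosen after seeing the data left out the 3 arrays highest in acinar or enterocyte genes; no member was called, Reg1 stood at 0.14, Reg3b at 3.89, Reg3g at 2.61 and Reg3d at -0.58 in 16-week db/db islets. Outside these counts, arrays were also left out one at a time from the covariate fit for Reg3d and from the fit for called list genes in 16-week db/db islets. The covariates also turned the sign of all 6 tested members in db/db islets of 16 against 6 weeks, a comparison likewise outside these counts. Leaving out 1 array in turn, which assumes that the lone array left varies like the other groups, called 0 to 1 members in 16-week db/db, in 6-week ob/ob and in both interactions. The ranges were -1.10 to 0.42 (Reg1), -0.28 to 1.57 (Reg2) and -4.58 to 0.60 (Reg3d) in 16-week db/db islets. They were -1.63 to 0.24 (Reg1), -1.79 to 1.59 (Reg2), -0.45 to 2.49 (Reg3a), -1.53 to 2.56 (Reg3b) and -2.30 to 0.28 (Reg3d) in 6-week db/db islets. In 6-week ob/ob islets they were -0.14 to 1.63 (Reg2), -3.30 to 1.17 (Reg3a), -5.61 to 1.76 (Reg3b), -0.35 to 0.83 (Reg3d) and -6.93 to 1.04 (Reg3g). The Reg3d interaction at 16 weeks ranged between -6.61 and -1.42. Of 7 members, 3 correlated with the acinar mean, 2 without the 2 farthest arrays and 0 from deviations within groups, where the smallest possible p is 0.00781 before adjustment. Without the 2 farthest arrays r turned for Reg3g with the acinar mean (-0.21) and, with the enterocyte mean, for Reg1 (-0.34), Reg3b (-0.01) and Reg3d (-0.35). Beyond the fewer arrays, the causes were not tested. No paired analysis was possible because the labels give the arrays of different groups no shared animal, litter or batch number.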
